A study of Mus musculus with 6 samples.

Results

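The genes examined here were Atf4, other stress regulators and targets linked to it, and the genes for amino acid synthesis, amino acid transport and tRNA charging. They were taken by gene symbol, as 42 of the 55421 genes in the table. The list sets no condition on a measured value, but it was drawn up with earlier results of these data known. The 42 genes comprise 7 regulators, 14 enzymes, 8 transporters and 13 genes of tRNA charging (12 aminoacyl-tRNA synthetases and the tRNA export receptor Xpot). Their levels were compared between RNA-seq libraries of mouse leukemia cells of Ddit4 wild-type and knockout origin, with 3 libraries each. The cells came from C57BL/6 mice. Blood stem and progenitor cells (c-Kit+ cells of the bone marrow) from Ddit4+/+ or Ddit4-/- donors had received the fusion oncogene AE9a, a short form of AML1-ETO, through a retrovirus that also brings GFP, and leukemia cells were obtained from the bone marrow of irradiated recipients (AE9a-Ddit4+/+ and AE9a-Ddit4-/-). Both groups thus carry AE9a and both had grown in a host, and the labels also name upkeep of the cells in IMDM medium with serum. Per the study's methods the donors were 6 to 8 weeks old. The age of the recipients at harvest and any treatment of the mice whose cells were sequenced are not given in the sources used here. Nor is the number of primary leukemias behind the libraries. In the study's primary transplants, fewer AE9a-Ddit4-/- mice developed leukemia than the 3 libraries of that group. If the AE9a-Ddit4-/- libraries came from those mice, some share a primary leukemia. The p-values below thus measure only the spread between these libraries, which may be technical.

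When amino acids run short or unfolded proteins accumulate, kinases phosphorylate the initiation factor eIF2 alpha, general translation falls and the mRNA of the transcription factor ATF4 is translated better, so that ATF4 activity can change with little change of its mRNA. ATF4 binds with C/EBP partners to a composite site, the C/EBP-ATF response element, in genes for making, importing and charging amino acids. mTORC1 also raises ATF4 translation, and Ddit4, itself a target of the stress response, encodes an inhibitor of mTORC1.

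Of the 42 genes, all of which passed the filter on low counts, 2 were higher and 9 were lower in AE9a-Ddit4-/- than in AE9a-Ddit4+/+ libraries (edgeR adjusted p below 0.05). Asns, the asparagine synthetase, was 7.10-fold lower, and Aars, Sars and Wars, the synthetases for alanine, serine and tryptophan, were 2.12-, 1.97- and 2.18-fold lower. Psph, Got1 and Cth among the enzymes and Slc1a5 and Slc6a9 among the transporters were also lower, whereas the glutamine transporter Slc38a2 was 2.29-fold and the alanine transaminase Gpt2 4.25-fold higher. Across all 18375 genes tested, 30.1% passed the threshold, 19.4% as higher and 10.7% as lower. Among the 8218 genes with an average log2 CPM (CPM, counts per 1000000 of the scaled library total) above 4, which include 32 of the 42 genes, these shares were 15.1% and 17.0%. The 9 lower genes are 21.4% and the 2 higher genes 4.76% of the 42. The lower share was above that of all genes and, by less, above that of genes over a log2 CPM of 4. It was taken over all 42 genes, not over the 32 above that level, and the difference was not tested.

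The median log2 fold change (AE9a-Ddit4-/- over AE9a-Ddit4+/+ throughout) was -0.54 over the 42 genes, 0.04 over all genes tested and -0.17 over those with an average log2 CPM above 4. It was below 0 in 32 of the 42 genes, compared with 48.6% of all genes and 58.7% of those above a log2 CPM of 4. The median is the same without Cth and Cbs, the members nearest to the limit of detection. The 2 groups of libraries did not overlap for 14 genes, 3 higher and 11 lower, whereas this was so for 50.1% of all genes (27.9% higher and 22.2% lower) and, for the lower direction, for 30.8% of those above a log2 CPM of 4. Leaving out single libraries changed these values. The count of lower genes was 4 without AE9a-Ddit4+/+ library 1, 14 without library 2 and 3 without library 3. It was 4 without AE9a-Ddit4-/- library 1, 7 without library 2 and 4 without library 3. The lower count over all genes, 1975 with every library, changed as well. It was 1168, 2078 and 1089 without AE9a-Ddit4+/+ libraries 1, 2 and 3, and 1157, 1360 and 1397 without AE9a-Ddit4-/- libraries 1, 2 and 3. Leaving out AE9a-Ddit4+/+ library 1 moved the median to -0.17, leaving out library 2 moved it to -0.82, and the 2 higher genes passed in each of these fits.

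**Figure D1:**
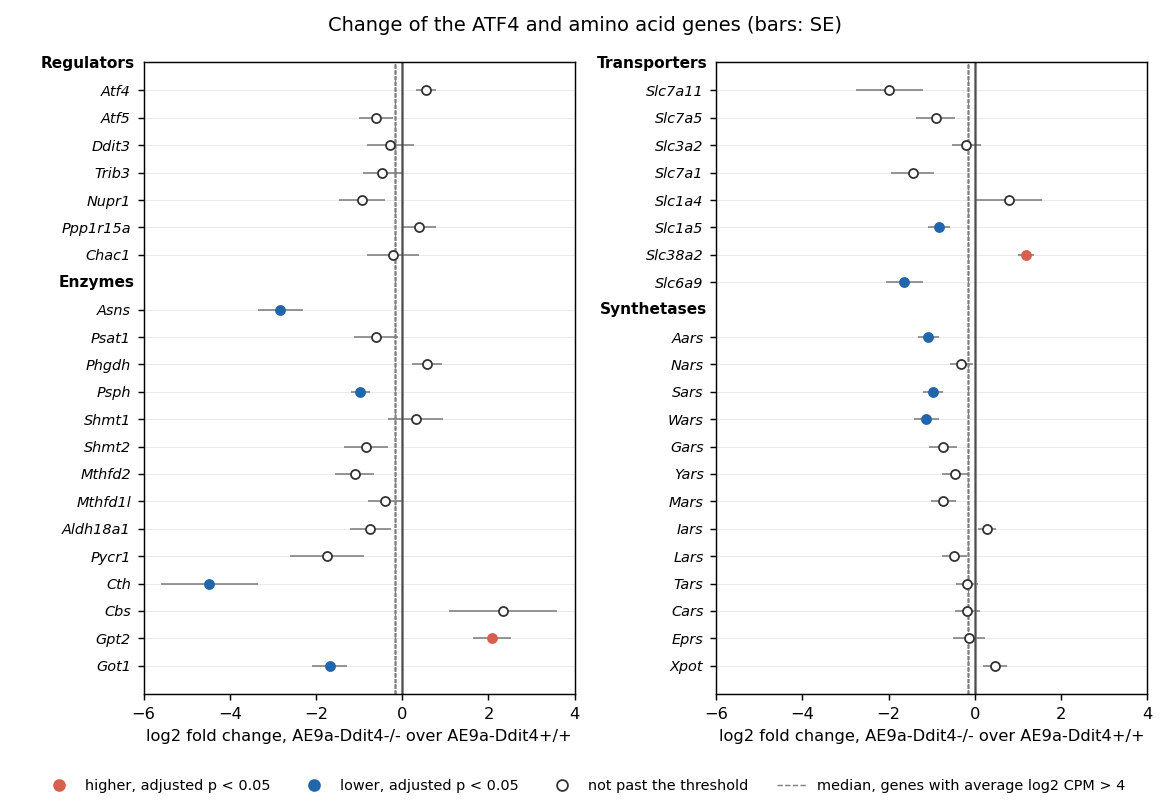
Log2 fold change of each of the 42 genes (points) with its standard error (bars), grouped by role, with filled points for an adjusted p below 0.05 and sizes for Cth and Cbs that depend on the fit, since 1 of the groups has at most 12 counts in each library. Filled points lie left of 0 for 9 genes and right of 0 for Gpt2 and Slc38a2, and the dashed line is the median of genes above an average log2 CPM of 4 (-0.17).

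The sequence TGATGNAA, the letters of the C/EBP-ATF response element, was searched on both strands of the RefSeq promoter windows (GRCm38.p6, 250 bases before to 50 after each annotated start), which the counts did not use. Genes are in part known as ATF4 targets because of such sites, so the share among them is a description. Of the 42 genes, 35 matched a window, and 13 of these (37.1%) held the letters, compared with 1219 of 27025 genes (4.51%). By role, 3 of 7 regulators, 3 of 13 enzymes, 2 of 6 transporters and 5 of 9 genes of tRNA charging held them. The share was 3 of 6 among genes that were lower, 0 of 2 among those that were higher and 10 of 27 among those not past the threshold. A match is a description of the letters, not a bound site. Cth, Slc7a5, Slc1a5, Nars, Wars, Lars and Cars had no entry.

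A site of each of the 3 lower genes, followed by 1 for each of 4 genes that did not pass the threshold, are shown with the 8 letters in capitals, each read 5′ to 3′ on the strand that carries them.
Asns, chr6:7693214-7693243, minus strand: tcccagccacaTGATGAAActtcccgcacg
Got1, chr19:43524689-43524718, plus strand: ggaggcttgtaTGATGCAAccaatgcaatg
Aars, chr8:111033840-111033869, minus strand: tcagagcgctcTGATGAAAagtgacccgct
Chac1, chr2:119351038-119351067, minus strand: cctggcaggagTGATGCAAcggcagggaag
Trib3, chr2:152344028-152344057, plus strand: ccccgcccggcTGATGTAAacctgagctaa
Slc7a11, chr3:50443661-50443690, minus strand: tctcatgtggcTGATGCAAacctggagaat
Iars, chr13:49682126-49682155, minus strand: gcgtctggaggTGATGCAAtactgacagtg

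Over all 13 genes there were 15 such sites, of which 11 read TGATGCAA. The site of Asns lies at -23 from its annotated start, and that of Got1 at -102. The site shown for Aars lies at 9, within the transcribed part.

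The libraries held 62141558 to 72717681 counts, and 12 counts, taken as the limit of detection, are 0.163 to 0.198 CPM. Ddit4 itself was at 228, 161 and 342 CPM in libraries of AE9a-Ddit4+/+ and 84.9, 77.7 and 85.9 CPM in those of AE9a-Ddit4-/-. Its RNA was lower but not absent (log2 change of -1.56 ± 0.28 SE, adjusted p of 0.00635 by edgeR). By western blot the study reported that AE9a-Ddit4-/- leukemia cells lacked the DDIT4 protein altogether. The groups also differed in the cells or RNA they held. The summed level of 13 erythroid markers was 7801 to 16458 CPM in AE9a-Ddit4+/+ and 655 to 1189 CPM in AE9a-Ddit4-/- libraries, and 10 of them were lower and 0 higher. The sum of 13 neutrophil markers was 7172 to 11859 and 1866 to 5180 CPM (5 lower, 0 higher), and that of 9 megakaryocyte markers 99.9 to 161 and 2276 to 3029 CPM (7 higher, 1 lower of 8 tested). B cell (7.81 to 140 and 392 to 955 CPM; 6 of 8 higher, with Ms4a1 at 0 in AE9a-Ddit4+/+), T and NK cell (10.3 to 47.7 and 81.1 to 107 CPM; 8 of 9 tested higher, with Trac, Klrb1c and Ncr1 at 0 in AE9a-Ddit4+/+) and stromal and endothelial markers (6.85 to 13.1 and 160 to 194 CPM; 4 of 9 higher) had larger sums in AE9a-Ddit4-/-. So had monocyte and macrophage markers (70.2 to 137 and 152 to 367 CPM, 3 of 9 higher). The largest single parts of the B cell, T and NK cell, and stromal and endothelial sums in AE9a-Ddit4-/- were Ighm, Nkg7 and Pecam1. Of these, Ighm and Nkg7 did not pass the threshold. Markers of leukemic progenitors, among them Kit, Cd34 and Myb, had counts in both groups but not at like levels. Their sums were 445 to 547 CPM in AE9a-Ddit4+/+ and 1583 to 1716 CPM in AE9a-Ddit4-/- libraries (4 of 6 higher), which do not give the change of single markers. Mitochondrially encoded genes took 5.03% to 7.90% of the counts in AE9a-Ddit4+/+ and 11.3% to 16.4% in AE9a-Ddit4-/- libraries. Y-linked genes above a log2 CPM of 4 had a median log2 fold change of 6.60 (6 genes), so the sex of the cells and the genotype cannot be told apart. The part of these differences in the results below was not tested, and in such bulk libraries fewer cells of a type and less RNA per cell cannot be told apart.

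**Figure D2:**
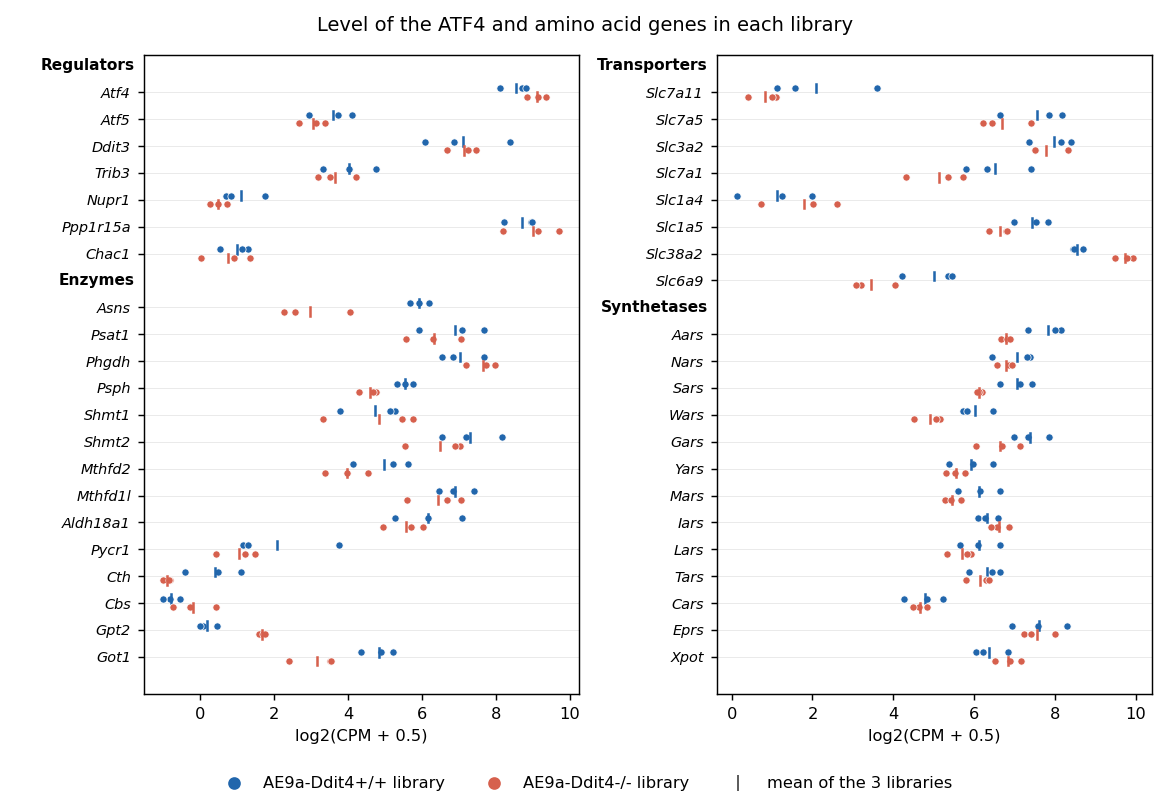
Level of each of the 42 genes in every library as log2(CPM + 0.5), with 1 point per library and a vertical bar for the mean of 3 libraries. The points of the groups are far apart for Asns and Slc38a2 and overlap for 6 of 7 regulators and 10 of 13 genes of tRNA charging.

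Among the 7 regulators, 0 were higher and 0 were lower by the edgeR test, none had an unadjusted p below 0.05, and DESeq2 and limma-voom called 0 as well. Of all genes tested, 19.4% were higher and 10.7% lower. Atf4 (ENSMUSG00000042406, chromosome 15, 80255184 to 80257541, plus strand) was at 418, 276 and 450 CPM in AE9a-Ddit4+/+ and 560, 652 and 461 CPM in AE9a-Ddit4-/- libraries. All 3 AE9a-Ddit4-/- libraries lay above all 3 AE9a-Ddit4+/+ libraries, but the closest pair was 450 and 461 CPM. Mean levels came to 381 ± 92.6 and 558 ± 95.9 CPM (SD, n = 3 each) and the log2 fold change was 0.55 (SE of 0.24, adjusted p of 0.125 by edgeR). Genes of chromosome 15 above a log2 CPM of 4 had a median log2 fold change of 0.39, which is 0.56 above that of all genes at this level, and the part of this shift in the Atf4 value was not tested. Per kb of exon, Atf4 was the most abundant of the 42 genes in both groups, at 162 and 237 CPM per kb, followed by Ppp1r15a, which encodes the phosphatase subunit that reverses eIF2 alpha phosphorylation, at 148 and 193.

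The other regulators varied most within a group. Ddit3, which encodes the stress factor CHOP, was at 117, 67.7 and 337 CPM in AE9a-Ddit4+/+ and 177, 151 and 102 CPM in AE9a-Ddit4-/- libraries. Its sign turned on AE9a-Ddit4+/+ library 3, from a log2 fold change of -0.28 to 0.63 without that library. Ppp1r15a was at 301, 497 and 504 CPM against 846, 292 and 565 CPM, with AE9a-Ddit4-/- library 1 as the highest, and the log2 fold change of 0.39 became -0.01 without it. Atf5, a relative of Atf4, had a log2 fold change of -0.61, and the pseudokinase Trib3, which restrains ATF4, had -0.47. The stress factor Nupr1 (-0.94) and the glutathione-degrading enzyme Chac1 (-0.22, and 0.12 without AE9a-Ddit4-/- library 3) were low, with 0.517 to 2.88 CPM in every library. The p-values of these genes do not show that their levels were the same, since SEs ran from 0.24 for Atf4 to 0.60 for Chac1.

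Among the 14 enzymes, 1 was higher (7.14%) and 4 were lower (28.6%). The lower count was 2 without AE9a-Ddit4+/+ library 1 or 3. For all genes the higher and lower shares were 19.4% and 10.7%, and above a log2 CPM of 4 they were 15.1% and 17.0%. Asns (ENSMUSG00000029752, chromosome 6, 7675169 to 7693254, minus strand), whose product makes asparagine from aspartate, was at 59.8, 50.8 and 72.6 CPM in AE9a-Ddit4+/+ and 5.41, 16.0 and 4.35 CPM in AE9a-Ddit4-/- libraries. The lowest AE9a-Ddit4+/+ library was well above the highest AE9a-Ddit4-/- library. The log2 fold change was -2.83 (SE of 0.52, adjusted p of 0.00667 by edgeR), and the call held in 15 of 15 alternatives, with log2 fold changes from -3.70 to -2.54. Chromosome 6 had a median of -0.17.

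Got1 (ENSMUSG00000025190, chromosome 19, 43499752 to 43524605, minus strand), the cytosolic aspartate transaminase, was at 20.0, 29.4 and 36.7 CPM and at 10.9, 4.81 and 11.1 CPM. The groups were separate, with a log2 fold change of -1.69 (SE of 0.40, adjusted p of 0.0177 by edgeR), and the call was lost without AE9a-Ddit4+/+ library 3 (adjusted p 0.0622, with adjusted p of 0.000322 to 0.0622 over all alternatives). Gpt2 (ENSMUSG00000031700, chromosome 8, 85492576 to 85527560, plus strand), the mitochondrial alanine transaminase, was the gene that went the other way, from 0.855, 0.56 and 0.495 CPM to 2.49, 2.77 and 2.87 CPM. Its level was low, but the 3 libraries of each group lay close together, and the log2 fold change was 2.09 (SE of 0.44, adjusted p of 0.0108 by edgeR) and kept its call without any single library.

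Of the 3 enzymes of serine synthesis, Psph was lower. Psph (ENSMUSG00000029446, chromosome 5, 129765558 to 129787449, minus strand), the phosphatase of the last step, was at 53.9, 46.0 and 39.4 CPM in AE9a-Ddit4+/+ and 19.1, 26.8 and 25.3 CPM in AE9a-Ddit4-/- libraries. The groups did not overlap, and the log2 fold change was -0.97 (SE of 0.23, adjusted p of 0.0171 by edgeR). Omission of AE9a-Ddit4+/+ library 1 (adjusted p 0.0603) or of AE9a-Ddit4-/- library 1 (0.0506) ended the call, with adjusted p of 0.00142 to 0.0773 over all alternatives. Chromosome 5 had a median of -0.44, and 10.4% of the Psph exon bases are shared with Cct6a on the other strand, whose reads cannot be told apart without strand. Phgdh, which encodes the first enzyme of the pathway, had 206, 93.1 and 115 CPM against 145, 254 and 215 CPM, with overlapping groups and a log2 fold change of 0.57 (SE of 0.34, adjusted p of 0.248 by edgeR). Psat1, which encodes the enzyme between them, had a log2 fold change of -0.62 (SE of 0.51, adjusted p of 0.395 by edgeR).

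Cth (ENSMUSG00000028179, chromosome 3, 157894248 to 157925077, minus strand), the cystathionine gamma-lyase that makes cysteine, had 105, 17 and 58 counts in AE9a-Ddit4+/+ and 0, 4 and 4 counts in AE9a-Ddit4-/- libraries. The AE9a-Ddit4-/- libraries were at or under the limit of detection of 12 counts, so no size is given. The edgeR adjusted p of 0.0217 was lost without AE9a-Ddit4+/+ library 1 (0.0760) or 3 (0.0526) or AE9a-Ddit4-/- library 2 (0.0507) or 3 (0.0631), with 0.000595 to 0.115 over 13 alternatives. Cbs, the enzyme of the step before, had 4, 0 and 12 against 6, 20 and 62 counts and did not pass.

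The enzymes of folate and proline metabolism did not pass the threshold. In mitochondria, Shmt2 and Mthfd2 take one-carbon units from serine, and their log2 fold changes were -0.83 (SE 0.51) and -1.10 (SE of 0.45, adjusted p of 0.104 by edgeR), with -0.39 for Mthfd1l. Mthfd2 passed in 1 of 15 alternatives, without AE9a-Ddit4+/+ library 2 (adjusted p 0.0285). The cytosolic Shmt1 had 0.32, which became -0.03 when AE9a-Ddit4+/+ library 2 was left out and -0.13 when AE9a-Ddit4-/- library 3 was. Aldh18a1 and Pycr1, of proline synthesis, had -0.74 and -1.75, the latter with a single high library, at 12.9 CPM in AE9a-Ddit4+/+ library 1 beside 0.851 to 2.27 CPM in the other 5.

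Among the 8 transporters, 1 was higher (12.5%) and 2 were lower (25%), beside 19.4% and 10.7% of all genes. Above a log2 CPM of 4 the shares were 15.1% and 17.0%. Without single libraries the count of lower transporters was 5 for AE9a-Ddit4+/+ library 2, 1 for AE9a-Ddit4-/- library 2 and 0 for each of the other 4. Slc38a2 (ENSMUSG00000022462, chromosome 15, 96687392 to 96699730, minus strand), which imports glutamine and other small neutral amino acids with sodium, was at 411, 349 and 354 CPM in AE9a-Ddit4+/+ and 965, 708 and 875 CPM in AE9a-Ddit4-/- libraries. The groups were far apart relative to their spread (371 ± 34.5 and 849 ± 130 CPM, SD, n = 3 each), with a log2 fold change of 1.19 (SE of 0.19, adjusted p of 0.00367 by edgeR), past the threshold in 15 of 15 alternatives. It lies on chromosome 15, whose median was 0.39, as does Tars, which had -0.18 (SE 0.26).

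Slc1a5 (ENSMUSG00000001918, chromosome 7, 16781340 to 16798274, plus strand), another glutamine transporter, was at 227, 125 and 183 CPM against 81.2, 109 and 112 CPM. The groups were separate by a small margin, and the log2 fold change was -0.82 (SE of 0.26, adjusted p of 0.0478 by edgeR). The call held in 5 of 15 alternatives and in 1 of 6 fits without a library, the fit without AE9a-Ddit4+/+ library 2; the adjusted p was 0.143 without AE9a-Ddit4+/+ library 1, 0.119 without library 3, and 0.140, 0.0855 and 0.0842 without AE9a-Ddit4-/- libraries 1, 2 and 3, and ran from 0.0159 to 0.143 over all alternatives. Slc6a9 (ENSMUSG00000028542, chromosome 4, 117834506 to 117875198, plus strand), a glycine transporter, was at 40.6, 18.0 and 43.3 CPM against 8.71, 16.1 and 7.98 CPM. Its log2 fold change was -1.64 (SE of 0.43, adjusted p of 0.0255 by edgeR). The lowest AE9a-Ddit4+/+ and the highest AE9a-Ddit4-/- library were close, 30.2% of its exon bases are shared with Ccdc24 on the other strand, and the call was lost without AE9a-Ddit4+/+ library 1 (adjusted p 0.0768) or 3 (0.0833) or AE9a-Ddit4-/- library 1 (0.0886) or 3 (0.0841), with 0.00180 to 0.105 over all alternatives.

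The cystine importer Slc7a11 and the arginine and lysine importer Slc7a1 did not overlap between the groups but missed the threshold, with log2 fold changes of -1.98 (SE of 0.78, adjusted p of 0.0950 by edgeR) and -1.44 (SE of 0.50, adjusted p of 0.0649 by edgeR). Slc7a11 was at 11.5, 1.67 and 2.48 CPM against 1.65, 0.823 and 1.48 CPM, so that AE9a-Ddit4+/+ library 1 alone stood high. The leucine importer Slc7a5 had -0.90 (SE 0.45) and its heavy chain partner Slc3a2 -0.20 (SE 0.34), with 0.02 for Slc3a2 without AE9a-Ddit4+/+ library 1. Slc7a11 (edgeR adjusted p 0.0409), Slc7a5 (0.0450) and Slc7a1 (0.0330) passed without AE9a-Ddit4+/+ library 2, the library in which all 8 transporters were lowest within their group, while over all alternatives their adjusted p ran up to 0.424, 0.425 and 0.206. The neutral amino acid transporter Slc1a4 had a log2 fold change of 0.79 (SE 0.77).

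Of the 13 genes of tRNA charging, 0 were higher and 3 were lower (23.1%). The lower count was 1 without AE9a-Ddit4+/+ library 3 or without AE9a-Ddit4-/- library 1 or 3. Higher and lower shares were 19.4% and 10.7% over all genes, and 15.1% and 17.0% above a log2 CPM of 4. Aars (ENSMUSG00000031960, chromosome 8, 111033144 to 111057664, plus strand) was at 284, 160 and 254 CPM in AE9a-Ddit4+/+ and 100, 112 and 117 CPM in AE9a-Ddit4-/- libraries. The log2 fold change was -1.08 (SE of 0.24, adjusted p of 0.0141 by edgeR), lost without AE9a-Ddit4-/- library 1 (adjusted p 0.0530, with 0.00122 to 0.0593 over all alternatives), and 15.1% of its exon bases are shared with Exosc6 on the same strand. Sars (ENSMUSG00000068739, chromosome 3, 108424865 to 108445209, minus strand) was at 172, 98.7 and 139 CPM against 73.0, 68.6 and 66.5 CPM. Its AE9a-Ddit4-/- libraries varied little, at 69.4 ± 3.29 CPM (SD, n = 3), and its log2 fold change was -0.98 (SE of 0.23, adjusted p of 0.0168 by edgeR). The call was lost without AE9a-Ddit4+/+ library 1 (adjusted p 0.0509) or 3 (0.0536) or AE9a-Ddit4-/- library 3 (0.0514), with 0.00204 to 0.0558 over all alternatives.

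Wars (ENSMUSG00000021266, chromosome 12, 108860030 to 108894174, minus strand) was at 52.2, 56.4 and 88.4 CPM against 22.3, 35.0 and 32.8 CPM. The groups of Wars were separate, and its log2 fold change was -1.13 (SE of 0.29, adjusted p of 0.0227 by edgeR). It lost the call without AE9a-Ddit4+/+ library 3 (adjusted p 0.0721) or AE9a-Ddit4-/- library 1 (0.0675) or 3 (0.0590), with 0.00355 to 0.0721 over all alternatives. The other 10 genes did not pass, and their groups overlapped. Gars and Mars had log2 fold changes of -0.73 each (SE 0.33 and 0.29), Lars -0.47, Yars -0.45, Nars -0.31, Tars -0.18, Cars -0.18 and Eprs -0.13. Iars (0.29) and Xpot (0.47), which exports tRNA from the nucleus, were the genes above 0. Cars and Eprs turned to 0.08 and 0.30 without AE9a-Ddit4+/+ library 1, Eprs to 0.03 without AE9a-Ddit4-/- library 1, and Mars passed without AE9a-Ddit4+/+ library 2 (adjusted p 0.0245, with 0.0245 to 0.278 over all alternatives).

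A wider set of 100 pathway genes was listed by function, also with earlier results of these data known. Of the 95 tested, 12 were higher (12.6%) and 17 lower (17.9%). Over all genes the shares were 19.4% and 10.7%, and over those above a log2 CPM of 4 they were 15.1% and 17.0%. The lower count was 9 without AE9a-Ddit4+/+ library 1 or 3 and 11 without AE9a-Ddit4-/- library 1 or 3. The wider set held the remaining cytosolic synthetases with 3 cofactors of their complex, and the mitochondrial synthetases, which are separate genes for the organelle. Among these 11 cytosolic genes, 4 were lower (36.4%) and 0 higher. Kars, the lysine enzyme, fell from 363 ± 81.6 to 151 ± 44.1 CPM (log2 change of -1.26 ± 0.28 SE, adjusted p of 0.0141 by edgeR), and the call held without any single library. Hars, the histidine enzyme, fell from 95.1 ± 29.5 to 40.4 ± 11.5 CPM (-1.23 ± 0.31 SE, adjusted p of 0.0233 by edgeR) but lost the call without AE9a-Ddit4+/+ library 1 or 3 or without AE9a-Ddit4-/- library 1 or 3 (highest adjusted p 0.0743). The others, named after their values were seen, were Vars (-0.54), which kept the call without AE9a-Ddit4+/+ library 2 and lost it without any other (highest adjusted p 0.122), and the cofactor Aimp1 (-0.84), which lost it without AE9a-Ddit4+/+ library 3 (0.0510). Of 17 mitochondrial synthetases, 1 was lower (5.88%) and 0 were higher. The lower one was Lars2 (-0.83 ± 0.23 SE, adjusted p of 0.0286 by edgeR). It lost the call without AE9a-Ddit4+/+ library 1 or 3 or without AE9a-Ddit4-/- library 1 or 3 (highest adjusted p 0.0924). Over the 20 cytosolic synthetases of both lists the log2 fold change was below 0 in 19, Iars excepted, with a median of -0.47. Among all genes above a log2 CPM of 4 it was below 0 in 58.7%, with a median of -0.17. The count was also 19 under each change of scaling, filter or test, with medians from -0.53 to -0.40, and 17 to 19 without single libraries. Of the 20, 6 (30%) were lower past the threshold. This count was 3, 8 and 2 without AE9a-Ddit4+/+ libraries 1, 2 and 3. It was 2, 5 and 2 without AE9a-Ddit4-/- libraries 1, 2 and 3. The median over the mitochondrial synthetases was -0.52, close to that of the cytosolic ones, and the difference was not tested.

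**Figure D3:**
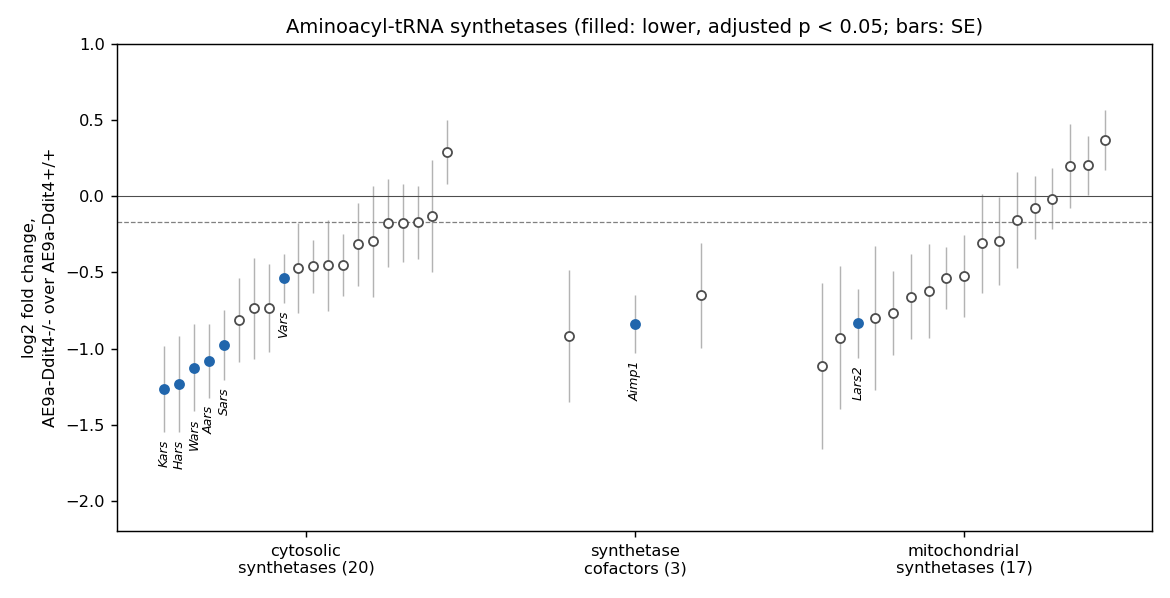
Log2 fold change (AE9a-Ddit4-/- over AE9a-Ddit4+/+) of 20 cytosolic synthetases, 3 cofactors and 17 mitochondrial synthetases, with SE as bars and 1 point per gene in order of size. Filled points passed the threshold, all of them below 0 (6, 1 and 1 genes), and the dashed line is the median of genes with an average log2 CPM above 4 (-0.17).

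Of 21 further regulators tested, 3 were higher (14.3%) and 2 lower (9.52%), beside 19.4% and 10.7% of all genes. Eif2ak1, the heme-regulated eIF2 alpha kinase of the red cell lineage, was at 213, 231 and 190 CPM in libraries of AE9a-Ddit4+/+ and 93.6, 79.3 and 79.3 CPM in those of AE9a-Ddit4-/- (log2 change of -1.33 ± 0.18 SE, adjusted p of 0.00190 by edgeR), a call kept without any single library, beside erythroid markers of which 10 of 13 were lower. The amino acid sensor Eif2ak4 (0.23), the kinase of the endoplasmic reticulum Eif2ak3 (0.30) and the double-stranded RNA sensor Eif2ak2 (-0.18) did not pass. Cebpb, an ATF4 partner and myeloid factor, was at 55.3, 101 and 74.2 CPM against 211, 145 and 135 CPM (1.09 ± 0.28 SE, adjusted p of 0.0245 by edgeR) and lost the call without AE9a-Ddit4+/+ library 1 or 3 or without AE9a-Ddit4-/- library 1 (highest adjusted p 0.0800). Cebpg, another partner, had -0.03 (SE 0.29). Gdf15, a stress-induced secreted factor, rose from 0.830 ± 0.358 to 15.1 ± 5.12 CPM (log2 change of 4.18 ± 0.49 SE, adjusted p of 0.00130 by edgeR) and kept the call without any single library. The others past the threshold, of which Vldlr was named after its values were seen, were Vldlr, which was higher (0.178 ± 0.103 and 8.01 ± 4.21 CPM), and Ppp1r15b, the constitutive partner of Ppp1r15a, which was lower (-0.58) but lost the call without any 1 of the 6 libraries (highest adjusted p 0.138).

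Of 30 further enzymes tested, 5 were higher (16.7%) and 8 lower (26.7%), beside 19.4% and 10.7% of all genes. Prodh, which begins proline breakdown, rose from 6.86 ± 1.55 to 46.0 ± 13.7 CPM (log2 change of 2.74 ± 0.32 SE, adjusted p of 0.00132 by edgeR), and Glul, the glutamine synthetase, from 77.8 ± 41.4 to 339 ± 43.0 CPM (2.12 ± 0.38 SE, adjusted p of 0.00604 by edgeR). Both kept the call without any single library. The cytosolic folate enzyme Mthfd1 was at 241, 53.4 and 113 CPM against 5.43, 24.9 and 30.0 CPM (-2.75 ± 0.74 SE, adjusted p of 0.0280 by edgeR), and the liver-type glutaminase Gls2 at 14.3, 2.05 and 2.31 CPM against 0.723, 0.165 and 0.136 CPM (-4.19 ± 1.08 SE, adjusted p of 0.0240 by edgeR). AE9a-Ddit4+/+ library 1 was the highest for both. Gls2 had 45, 10 and 10 counts in AE9a-Ddit4-/- libraries 1, 2 and 3. Libraries 2 and 3 were thus under the limit of detection of 12 counts, so the size of the Gls2 change depends on the fit. Mthfd1 kept the call without AE9a-Ddit4+/+ library 2 but lost it without any other library (highest adjusted p 0.0838), and Gls2 lost it without AE9a-Ddit4+/+ library 1 or without AE9a-Ddit4-/- library 2 or 3 (highest adjusted p 0.0698).

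Of 16 further transporters tested, 4 were higher (25%) and 2 lower (12.5%), beside 19.4% and 10.7% of all genes. Slc38a1, a close relative of Slc38a2 that also imports glutamine, was at 18.9, 37.0 and 8.88 CPM in libraries of AE9a-Ddit4+/+ and 319, 285 and 355 CPM in those of AE9a-Ddit4-/- (log2 change of 3.89 ± 0.51 SE, adjusted p of 0.00192 by edgeR). Like Slc38a2 it lies on chromosome 15, and its call was kept without any single library. Slc43a1, a large neutral amino acid transporter, fell from 118 ± 11.6 to 20.7 ± 6.85 CPM (-2.50 ± 0.29 SE, adjusted p of 0.00128 by edgeR), also without loss of the call. Slc7a7 was 2.25-fold higher (log2 fold change 1.17, edgeR adjusted p 0.0321) and lost the call without any library other than AE9a-Ddit4+/+ library 2 (highest adjusted p 0.105). Named after their values were seen, Slc38a5 was lower (27.8 ± 4.80 and 0.403 ± 0.297 CPM), and the glutamate transporters Slc1a1 and Slc1a3 were higher, with 0 counts in each AE9a-Ddit4+/+ library and 24 to 27 and 46 to 57 counts in AE9a-Ddit4-/- libraries.

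Within each genotype the 42 genes moved together between libraries. AE9a-Ddit4+/+ library 2 was the lowest of its group for 37 genes (88.1%) and library 1 the highest for 33 (78.6%), compared with 41.1% and 40.5% of all genes above a log2 CPM of 4. In AE9a-Ddit4-/-, library 1 was the lowest for 27 genes (64.3%), compared with 39.7%. The median deviation from the mean of the genotype, on the scale log2(CPM + 0.5), was 0.46, -0.51 and 0.07 for AE9a-Ddit4+/+ libraries 1, 2 and 3 and -0.29, 0.24 and 0.10 for AE9a-Ddit4-/- libraries 1, 2 and 3. Over all genes above a log2 CPM of 4 the same medians were between -0.02 and 0.05.

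The deviation ran through enzymes (0.59 and -0.62 in AE9a-Ddit4+/+ libraries 1 and 2), transporters (0.52 and -0.76) and genes of tRNA charging (0.45 and -0.47). The regulators followed library 2 (-0.45) but were nearer their mean in library 1 (0.16), and in AE9a-Ddit4-/- library 1 they lay above it (0.33) while enzymes lay below (-0.56). Mitochondrial synthetases deviated less in AE9a-Ddit4+/+ libraries 1 and 2, by 0.06 and -0.21. Their median in AE9a-Ddit4-/- library 1 was -0.20, close to -0.23 for genes of tRNA charging. Of the 17, 12 (70.6%) were lowest in AE9a-Ddit4+/+ library 2 and 13 (76.5%) in AE9a-Ddit4-/- library 1. The shares over all genes above a log2 CPM of 4 were 41.1% and 39.7%. For comparison, the median log2 fold change of the 42 genes between the genotypes was -0.54.

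**Figure D4:**
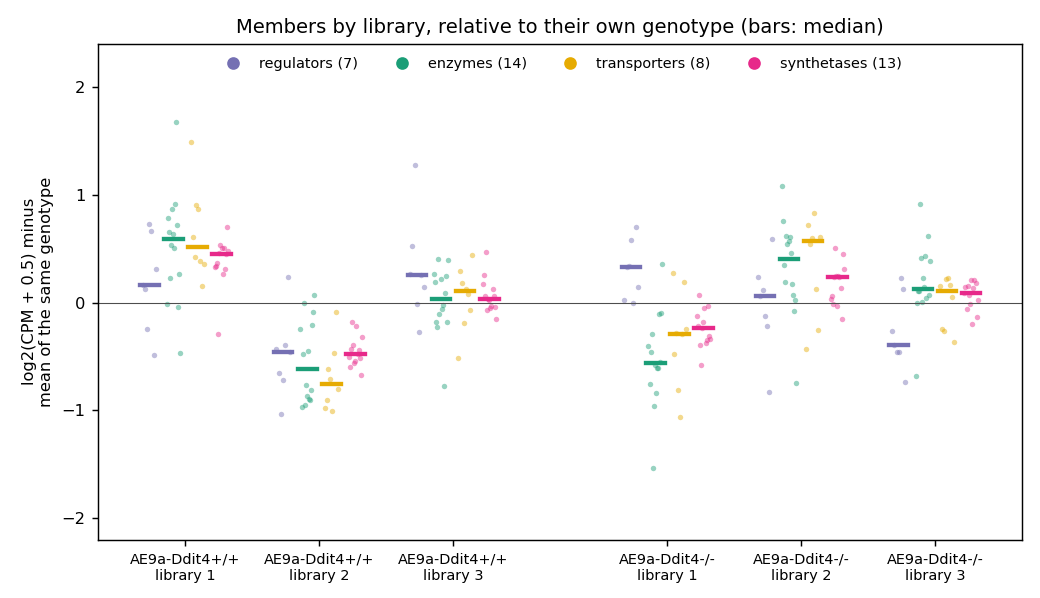
Deviation of each of the 42 genes from the mean of its genotype, on the scale log2(CPM + 0.5), by library and role (points), with the median per role as bars. The bars of enzymes, transporters and synthetases (with Xpot) lie above 0 in AE9a-Ddit4+/+ library 1 and below 0 in library 2, and those of regulators and enzymes lie on opposite sides of 0 in AE9a-Ddit4-/- library 1.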

How the data were processed

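RNA was sequenced from 6 libraries, which were grouped by the genotype in the sample titles (3 AE9a-Ddit4+/+, 3 AE9a-Ddit4-/-). The authors deposited whole-number gene counts in 1 table, not scaled to a common total. The aligner, counting tool, annotation and use of strand are not given in the sources used here; the submitters' processing notes name GRCm38 and mm10. The labels name an mRNA kit and the study's methods an rRNA-depletion kit, which was not resolved. In the deposited counts, the values 4, 8 and 12 outnumbered 2, 6 and 10 by factors of 1.40 to 1.62, so some fragments may have been counted about 4 times. The limit of detection was therefore set at 12 counts (3 fragments of 4 counts), which covers counting error only. Where the authors' counting could split reads between overlapping genes, the shared exon bases are given.

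Libraries of the 2 genotypes were compared by edgeR 4.0.16 in R 4.3.3, by its quasi-likelihood test (filterByExpr, TMM factors of 0.921 to 1.05, robust estimation, genotype as the only term), with Benjamini-Hochberg adjustment over 18375 genes and a threshold of 0.05. SE was obtained by dividing the size of the log2 fold change by the root of its F statistic. CPM were computed from TMM-scaled totals. The procedure was tested on simulated data. Alternatives used DESeq2 1.42.0 (size factors, Wald test), limma-voom (limma 3.58.1), library totals alone, no mitochondrially encoded genes, other filters, counts divided by 4, a replicate block, a threshold of 0.01 and the omission of each library. Positions and exon lengths are from GENCODE M21 (GRCm38), and promoter windows from RefSeq (GRCm38.p6). Of 43 table entries with the symbols of the 42 genes, a second Ddit3 entry was not used.

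The 42 genes, the pathway lists (100 genes) and the marker lists were chosen with earlier results of these data known, and no test over a list was made. Named genes are the 42, the 2 genes per pathway list and direction with the largest change past the threshold and at least 10 counts in every library, and Cebpb, Cebpg and the eIF2 alpha kinases. Values in each library are given for those of the 42 genes that passed the threshold, for Atf4 and for some other genes. The sequence of 1 further promoter site and the separate level of 1 further marker gene are not reported here.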

Additional observations from a re-analysis of the deposited data

How the results depend on the processing

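Over 626 comparisons of a single gene with an alternative, 572 kept direction and side of the threshold, 35 lost the call, 8 gained it and 11 changed sign. The sign changes concerned genes that had not passed: Ddit3 (0.0073 by limma-voom, 0.056 with the replicate block) and, without single libraries, Ddit3 (log2 fold changes of -0.66 to 0.63), Slc3a2 (-0.58 to 0.020), Cars (-0.40 to 0.078), Eprs (-0.43 to 0.30), Shmt1 (-0.13 to 0.77), Ppp1r15a (-0.013 to 0.65) and Chac1 (-0.76 to 0.12). The cause was not tested.

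Of the counts, 2 higher and 9 lower genes became 1 and 2 with the replicate block and 1 and 1 at a threshold of 0.01. Enzymes went from 1 higher and 4 lower to 0 and 1 under both. Lower genes of tRNA charging went from 3 to 1 with the block and 0 at 0.01. Lower transporters went from 2 to 1 with DESeq2 size factors, without mitochondrially encoded genes, without a filter and with at least 10 counts in every library, to 4 by the DESeq2 Wald test, and to 0 with the block and at 0.01. The wider pathway set went from 12 higher to 7 with at least 10 counts and with the block and to 8 at 0.01, and from 17 lower to 9 with the block and 7 at 0.01. Without single libraries, lower genes ranged from 3 to 14 over the 42, from 2 to 5 for enzymes, 0 to 5 for transporters, 1 to 4 for tRNA charging and 9 to 20 for the wider set, and the median from -0.82 to -0.17. In these fits the lower count over all genes ranged from 1089 to 2078.

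Across all genes the block left 2177 higher and 787 lower (3560 and 1975 without it), a threshold of 0.01 left 1964 and 712, and the DESeq2 Wald test called 4348 and 2749. Deviations of libraries with the same replicate number correlated at -0.24, -0.28 and -0.04, so the numbers were not taken to pair the libraries. The median of all genes moved from 0.04 to at most 0.11 under another filter or scaling. At 3 libraries per group a missed threshold does not show equal levels, and low genes such as Cth and Cbs lie near the limit of detection.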
